A study of Mus musculus with 2 samples.

Results

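Cytosolic ribosomal protein genes encode the protein part of the ribosome that translates nuclear-encoded mRNA, and they are read here in single cells from mouse colon lamina propria. The members were chosen by symbol: Rpl or Rps followed by a digit, or Rpsa, leaving out symbols that contain -ps or start with Rps6k, with at least 100 unique molecular identifiers (UMIs, the count of captured RNA molecules) over both libraries. The rule found 83 features and kept 81 of the 31053 features, 47 named for the large subunit and 34 for the small. Rpl10l, with 0 UMIs, and Rpl39l, with 41 UMIs, did not reach the minimum. Symbols are not proof of a place in the ribosome: Rps19bp1 is a protein that binds S19, and Rpl7l1 is a nucleolar relative of L7.

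The comparison was between 2 libraries made with a 10x Genomics 3′ kit, 1 per genotype. The WT library came from wild-type mice and the KO library from mice that lack the long noncoding RNA which the labels call LncRNA17Rik and the study lncLy6c, cut out with CRISPR-Cas9 on a C57BL/6J background. Both are labelled cd11b+ and gut lamina propria. The study's figure legend gives cells pooled from male mice 8 weeks of age. It was taken to describe these libraries, although its cell numbers differ from theirs. Neither genotype has a replicate, so no difference between the libraries could be set against a spread between mice. No feature carries the name LncRNA17Rik or LncLy6C, while 109 symbols end in 17Rik, so the deleted gene could not be used here to check the genotype labels. After the study's own cell limits, 2597 WT cells with 18994564 UMIs and 2514 KO cells with 22331342 UMIs remained, with medians of 5073 and 6564.5 UMIs per cell. Cells were clustered without the members and named from marker genes, and the comparisons below take the 8 classes that held 50 or more cells in both libraries.

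The cd11b+ label did not hold for every class. Itgam, which encodes CD11b, stood at 288 CPM (UMIs of a gene in the summed cells of a class, scaled to a total of 1e6) in WT inflammatory monocyte-like cells and 337 CPM in KO ones, and at 261 and 234 CPM in resident macrophage-like cells. In B cell-like cells it stood at 39.5 (WT) and 2.54 CPM (KO), and in T cell-like cells at 37.5 and 24.3 CPM. Lymphocyte classes low in Itgam were therefore present under this label in both libraries. The eosinophil-like class carried Ccr3 (800 and 982 CPM) and Alox15 (306 and 512 CPM), but Epx, an eosinophil granule gene, had 0 UMIs there in both libraries, and Prg2 and Il5ra had 3 UMIs each in WT and 14 and 13 in KO. Siglecf stood at 49.1 and 166 CPM there and at 75.7 and 35.5 CPM in neutrophil-like cells, and Retnlg, from the neutrophil list, was higher there (6505 and 6423 CPM) than in neutrophil-like cells (2410 and 2831 CPM).

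A ribosome needs 1 copy of nearly every ribosomal protein, and a growing or dividing cell spends a large share of its mRNA on them. Most of their mRNAs begin with a C followed by a run of pyrimidines, the 5′ terminal oligopyrimidine (TOP) tract, through which Larp1 and the mTOR pathway set how many are translated, so mRNA and protein output can part. Mature granulocytes, short-lived cells that no longer divide, are known for little RNA per cell. In single-cell data lymphocytes are known for a high share of these mRNAs.

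The starts of member genes show this tract in part. The windows below are the 5 members of highest and the 5 of lowest KO to WT ratio of their share of the ribosomal protein pool, and 4 of those with the largest range between classes, each 30 bases from 10 bases before the annotated RefSeq start into the first exon, on GRCm38.p6 and read 5′ to 3′ on the gene's strand. Capitals mark the longest run of C and T that opens with C and begins within 5 bases of that start. The first 5 windows belong to members with a higher share in KO.
Rps18: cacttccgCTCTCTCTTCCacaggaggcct
Rps15a: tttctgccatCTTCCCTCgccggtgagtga
Rpl12: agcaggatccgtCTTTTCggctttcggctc
Rpl10: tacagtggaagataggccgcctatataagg
Rpl26: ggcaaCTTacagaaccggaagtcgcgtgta
The next 5 belong to members with a lower share in KO.
Rpl41: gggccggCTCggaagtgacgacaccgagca
Rps9: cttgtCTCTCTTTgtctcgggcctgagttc
Rps26: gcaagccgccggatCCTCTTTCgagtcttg
Rps28: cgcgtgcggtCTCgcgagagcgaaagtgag
Rpl38: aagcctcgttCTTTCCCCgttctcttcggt
The last 4 belong to members whose share differs between cell classes.
Rpl13a: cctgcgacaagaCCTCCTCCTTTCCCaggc
Rps27: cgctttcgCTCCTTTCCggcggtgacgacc
Rps27rt: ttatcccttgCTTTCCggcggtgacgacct
Rps27l: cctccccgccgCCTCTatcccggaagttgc

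The windows lie at chr17:33955646-33955675 on the minus strand for Rps18, chr7:118116128-118116157 (minus) for Rps15a, chr2:32961702-32961731 (plus) for Rpl12, chrX:74270806-74270835 (plus) for Rpl10 and chr11:68901556-68901585 (plus) for Rpl26. Those of the lower members lie at chr10:128549149-128549178 (minus) for Rpl41, chr7:3704031-3704060 (plus) for Rps9, chr10:128626487-128626516 (minus) for Rps26, chr17:33824543-33824572 (minus) for Rps28 and chr11:114668570-114668599 (plus) for Rpl38. The remaining windows lie at chr7:45128726-45128755 (minus) for Rpl13a, chr3:90213629-90213658 (minus) for Rps27, chr9:114982720-114982749 (minus) for Rps27rt and chr9:66946076-66946105 (plus) for Rps27l. Tract length did not separate the members that were higher in KO, with tracts of 11, 8, 6, 0 and 3 bases, from those that were lower, with 3, 8, 8, 3 and 8. The longest of the printed tracts, 14 bases, is that of Rpl13a. Rps27 and its retrogene copy Rps27rt share 19 bases in a row of these windows, whereas Rps27 and its relative Rps27l share 4.

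Of the 81 members, 62 were found in the RefSeq promoter table, which holds 27025 genes. A tract of at least 5 bases starting within 5 bases of the annotated start was present in 29 of the 62 members (46.8%) against 21.2% of all genes in the table, and one of at least 8 bases in 20 members (32.3%) against 5.17%. With the C exactly at the annotated start and at least 4 pyrimidines after it, the counts were 13 members (21.0%) against 3.01%. In the 300 bases from 250 before to 50 after the start, on either strand, CCGGAAG stood in 24 members (38.7%) against 9.93% of genes, AAGATGGC in 6 (9.68%) against 3.19%, and TATAAA in 6 (9.68%) against 15.7%. These are matches of letters and describe the windows only.

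The members together took 15.5% of all UMIs in the WT library (2934703 UMIs) and 18.5% in the KO library (4135873 UMIs). The share differed between cell classes far more than between libraries. In WT it ran from 22.0% in B cell-like cells through 20.4% in cDC2-like, 19.7% in cDC1-like and 18.8% in T cell-like cells to 15.1% in inflammatory monocyte-like, 13.4% in resident macrophage-like, 6.94% in eosinophil-like and 5.62% in neutrophil-like cells. In KO the order was the same except that T cell-like cells, at 25.2%, came next after B cell-like cells at 25.8%, ahead of cDC2-like (21.3%), cDC1-like (21.0%), inflammatory monocyte-like (16.5%), resident macrophage-like (14.1%), eosinophil-like (4.61%) and neutrophil-like cells (4.52%). The highest class exceeded the lowest 3.91-fold in WT and 5.71-fold in KO. Over the 8 classes the shares of the libraries had a Pearson r of 0.976 and a Spearman rho of 0.929, a description over points that come from 2 libraries clustered together. Exact 95% intervals of these shares (Clopper-Pearson) were narrow, for instance 13.3% to 13.4% for WT resident macrophage-like cells, and like every interval here cover counting error only.

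**Figure D1:**
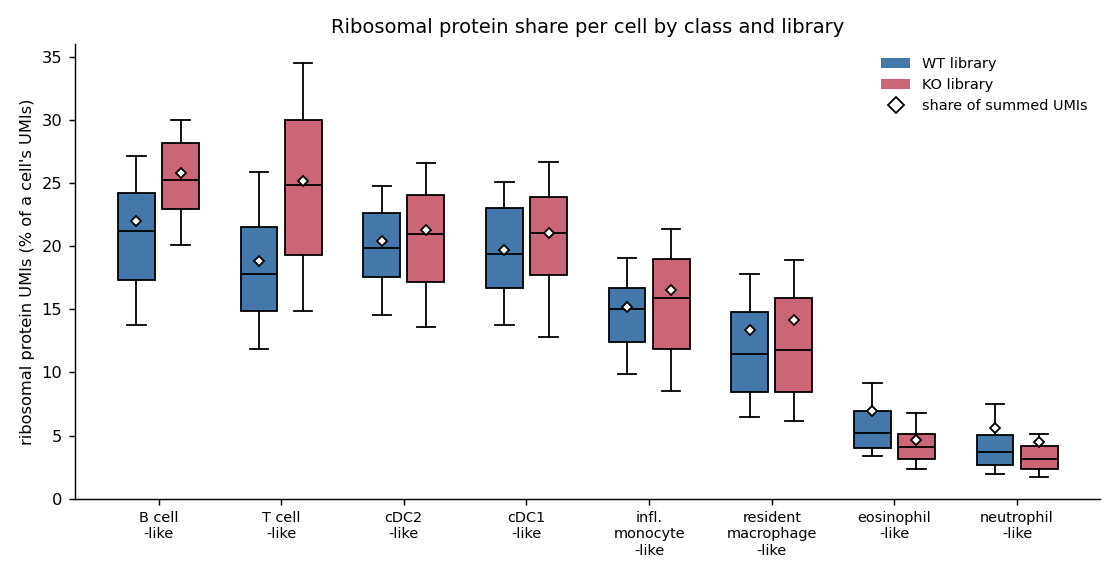
Ribosomal protein UMIs as a percentage of each cell's UMIs, by class and library; boxes span the quartiles with the median as a line, whiskers run from the 10th to the 90th percentile of cells, and diamonds mark the share of the summed UMIs. The medians of the lymphocyte and dendritic cell classes are 17.8% or more, those of the monocyte and macrophage classes 11.4% to 15.9%, and those of the granulocyte classes 5.21% or less.

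Cells of 1 class spread widely. In WT the median B cell-like cell held 21.2% with quartiles of 17.3% and 24.2%, and the median resident macrophage-like cell held 11.4% with quartiles of 8.43% and 14.8%. The standard deviation over resident macrophage-like cells was 4.38 percentage points in WT and 5.11 in KO, where counting alone would give 0.637 and 0.562. In both libraries the quartile ranges of every pair of neighbours in the order overlapped, with 1 exception. The ranges of resident macrophage-like cells (8.43% to 14.8% in WT, 8.47% to 15.9% in KO) and eosinophil-like cells (4.01% to 6.93% and 3.15% to 5.11%) did not overlap.

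Within a class the share was higher in the deepest quartile of cells than in the shallowest. From the shallowest to the deepest quartile of cells it went from 9.09% to 15.1% in WT resident macrophage-like cells, with median depths of 1332 and 10188.5 UMIs, and from 9.0% to 15.9% in KO ones. In cDC2-like cells it went from 17.7% to 21.9% in WT and from 18.2% to 22.6% in KO. Neutrophil-like cells went from 3.31% to 8.04% in WT and from 3.09% to 6.30% in KO, mostly in the deepest quartile. Their middle quartiles held 3.28% and 4.39% in WT and 3.53% and 3.21% in KO. Over the KO neutrophil-like cells the rho of share with depth was 0.059. The part of depth in these shares was not tested. Depth also differed between classes, from a median of 795 UMIs in WT eosinophil-like cells to 10581.5 in WT cDC2-like cells. With every cell thinned to 1000 UMIs, which left out 142 of 224 WT and 210 of 410 KO eosinophil-like cells, the WT shares were 20.9% in B cell-like, 19.7% in cDC2-like, 11.8% in resident macrophage-like, 6.75% in eosinophil-like and 4.46% in neutrophil-like cells.

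Clusters inside a class differed as well, and not all in the direction of the class. The WT resident macrophage-like cells lay mainly (79.9%) in cluster 1, at 13.8% in WT and 17.5% in KO, whereas the largest part of the KO cells (44.4%) lay in cluster 13, marked by Retnla, Ccl24 and Lpl, at 12.3% and 14.4%. Among T cell-like cells, the cluster with Gzma, Gzmb and Cd8a went from 19.4% in WT to 29.2% in KO, and the cluster with Icos and Rora from 16.9% to 20.5%. Genes of dividing cells were summed over a list of 10 with Mki67 and Top2a that was drawn up with the data in view. They went from 1262 to 139 CPM in the first of these clusters, from 443 to 78.2 CPM in the second and from 423 to 152 CPM in B cell-like cells. They went up in other clusters, from 176 to 261 CPM in cluster 1 and from 126 to 479 CPM in cluster 13. The same held for cluster 3, cDC2-like (143 to 335 CPM), and cluster 6, cDC1-like (143 to 256 CPM). The part of these genes in the ratios was not tested. Cluster 20, inflammatory monocyte-like, stood at 13.6% in its 15 WT cells and 8.73% in its 37 KO cells, and cluster 15, cDC2-like, at 18.1% in its 3 WT cells and 17.7% in its 128 KO cells. Classes with fewer than 50 cells in 1 library are given as values only: natural killer cell-like 20.8% and 17.3%, mature dendritic cell-like 12.5% and 18.9%, epithelial-like 15.9% and 19.4%, fibroblast-like 9.84% and 11.4%, and plasma cell-like 12.9% and 11.0% in WT and KO. Plasma cell-like cells held 35.2% and 38.0% immunoglobulin UMIs, which enter the same total.

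The pool was uneven between members. UMIs of a 3′ assay are not scaled by transcript length, and each level below is in CPM over all cells of a library. The 6 members with the most UMIs held 19.8% of the member UMIs in WT and 15.5% in KO, and the top 20 held 46.6% and 40.5%, against a median member at 1593 and 2288 CPM. Rpl41, which encodes a very short basic peptide of the large subunit, led with 8306 CPM in WT, and its KO level was 5525 CPM. Rps29 followed with 5532 and 6224 CPM, and Rpl37a with 4906 and 4198 CPM. Among the other leading members were Rps24 (3613 and 4574 CPM) and Rps27 (3396 and 4198 CPM). Rpl41 was detected in 96.9% of WT and 94.9% of KO cells, and Rps24 in 91.5% and 87.2%.

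At the other end stood paralogs and the gene caught by its symbol. Rpl22l1 had 368 CPM in WT and 479 in KO, Rps27l 315 and 407, and Rps27rt 323 and 283. Rpl7l1 had 36.7 and 38.7 CPM, and Rps19bp1 21.7 and 23.5 CPM. Rpl3l, a relative of Rpl3 known from skeletal and heart muscle, had 1.84 and 3.18 CPM, from 35 and 71 UMIs. Levels of single members can be understated by the counting, since a read that fits several genes equally well is usually dropped and ribosomal protein genes have many processed copies. Over the last 400 bases of the transcripts, the share of 100-base stretches also found in another gene was 0% for Rpl37a, Rpl12, Rps27l, Rpl27a and Rps16, 13.5% for Rps9, 18.3% for Rpl41, 84.1% for Rpl10, 86.0% for Rps6, 88.7% for Rps27a, 89.5% for Rps27rt and 100% for Rpl36a.

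To compare composition apart from the total, each member was read as a share of the member UMIs in its class. The members with the narrowest ranges, by the smaller of the ranges of the 2 libraries, were Rpl27a, Rps16, Rps28 and Rpl17. Rpl17 lay between 1.26% and 1.44% over the 8 classes in WT and between 1.27% and 1.74% in KO, and Rps28, a small subunit protein near the mRNA exit channel, between 2.41% and 2.86% and between 1.71% and 1.99%. In 1 library the range could still be wide: Rpl27a reached 2.74% in WT eosinophil-like cells against 1.63% to 1.96% in the other WT classes, and Rps16 made up 1.27% in KO eosinophil-like cells.

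Rps9, a small subunit protein at the mRNA entry channel, had the largest range after Rpl7l1, again by the smaller of the ranges of the 2 libraries. It made up 8.43% of the member UMIs in WT eosinophil-like cells and 4.98% in KO ones, and 5.57% and 4.26% in neutrophil-like cells. In resident macrophage-like cells it made up 3.54% and 1.88%, in inflammatory monocyte-like cells 3.59% and 2.31%, in B cell-like cells 2.58% and 1.33%, and in T cell-like cells 1.86% and 1.51%. In CPM, Rps9 differed less between the WT classes than the sum of the members did, at 5853 in eosinophil-like, 3132 in neutrophil-like, 4728 in resident macrophage-like and 3493 in T cell-like cells. Rpl7l1 also stood highest in that class, at 0.0761% and 0.0653% in eosinophil-like cells against 0.0114% and 0.00967% in T cell-like cells, but these rest on 14 and 14 UMIs and on 31 and 18 UMIs.

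Rpl12, of the stalk base of the large subunit, made up 0.933% and 1.52% of the pool in B cell-like cells and 0.935% and 1.45% in T cell-like cells, against 0.434% and 0.635% in inflammatory monocyte-like and 0.507% and 0.874% in resident macrophage-like cells. Rpl13a, known also from interferon-induced silencing of translation in myeloid cells, was highest in T cell-like cells in both libraries (0.483% and 0.410%) and lowest in eosinophil-like cells (0.136% and 0.149%). Rps27 made up 3.43% and 4.31% in B cell-like and 2.61% and 3.10% in T cell-like cells, against 2.58% and 2.64% in inflammatory monocyte-like and 2.31% and 2.18% in resident macrophage-like cells, with the WT values of T cell-like and inflammatory monocyte-like cells hardly apart. Its share was highest in neutrophil-like cells (4.39% and 6.03%) and lowest in cDC1-like cells (1.92% and 1.8%). Rps27l, a p53-induced relative of Rps27, was lowest in B cell-like cells (0.0540% and 0.0531%) and T cell-like cells (0.0753% and 0.0671%). Its highest share was that of neutrophil-like cells in WT (0.190%) and of cDC2-like cells in KO (0.275%, with 0.183% in WT).

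Further members were low in granulocytes. Rps18 made up 0.386% and 0.452% in eosinophil-like and 0.492% and 0.564% in neutrophil-like cells, against 0.655% to 0.820% in the other WT classes and 1.04% to 1.19% in the other KO classes. Rps15a made up 0.642% and 0.797% in eosinophil-like and 0.436% and 0.920% in neutrophil-like cells, against 0.876% or more in the other WT classes and 1.254% or more in the other KO classes. Rps7 made up 0.507% and 0.996% in neutrophil-like and 0.745% and 0.676% in eosinophil-like cells, the lowest class changing with the library. Granulocyte values rest on 18391 and 21452 member UMIs in eosinophil-like cells, and immunoglobulin UMIs, which these cells should lack, made up 0.694% of WT and 0.012% of KO eosinophil-like UMIs. The part of RNA from other cells in these compositions was not tested.

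**Figure D2:**
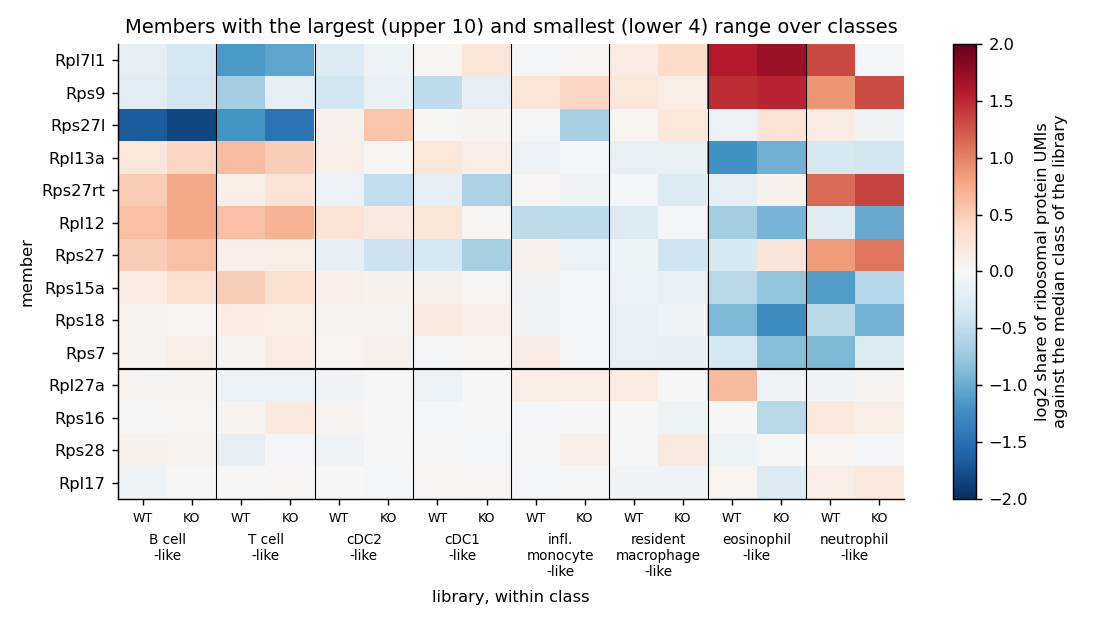
Heat map of the log2 share of a member among all ribosomal protein UMIs of a class, against the median class of the same library, with members in rows and WT and KO columns side by side for each class. Rps9 and Rpl7l1 are raised in eosinophil-like cells, Rps27l is low in B cell-like and T cell-like cells, Rpl12 is raised in both lymphocyte classes, and among the lower 4 members Rpl27a is raised in WT and Rps16 low in KO eosinophil-like cells.

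Other members were picked by name, and their ranges differed. Rpl5 and Rpl11, which join 5S rRNA and can bind Mdm2, made up 0.857% and 0.994% and 0.867% and 0.924% in resident macrophage-like cells, within 0.801% to 1.05% and 0.678% to 0.953% over the WT classes. Rps6, the subunit protein that S6 kinases phosphorylate, lay between 0.642% and 0.90% in WT and between 0.743% and 0.995% in KO. Rps27a, made as a fusion with ubiquitin, lay between 1.30% and 2.4% in WT and between 1.27% and 2.98% in KO. Rps19, the gene most often mutated in Diamond-Blackfan anaemia, lay between 1.01% and 1.56% and between 0.908% and 1.97%, with B cell-like cells highest in both libraries. Rpsa, also known as the laminin receptor, lay between 1.5% and 2.25% in WT, and in KO it was lowest in neutrophil-like cells, at 0.832%. Rpl10a lay between 0.373% and 0.639% and between 0.331% and 0.776%, with neutrophil-like cells lowest and cDC1-like cells highest in both.

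Paralog pairs were read as the share of the less abundant copy in the pair's UMIs. Rps27l took 1.55% of the Rps27 and Rps27l pair in WT B cell-like cells and 1.22% in KO ones, and 2.81% and 2.12% in T cell-like cells. It took 7.74% and 11.3% in cDC2-like, 8.36% and 9.75% in cDC1-like and 7.11% and 9.11% in resident macrophage-like cells. Inflammatory monocyte-like cells lay at 6.13% and 4.30%, eosinophil-like cells at 7.47% and 6.11%. Neutrophil-like cells lay at 4.15% (2.68% to 6.12%) and 2.92% (2.30% to 3.65%), with intervals that overlap those of T cell-like cells (2.44% to 3.21% and 1.77% to 2.52%). Both lymphocyte classes were below the other 5 myeloid classes in each library, with intervals that do not overlap. No 100-base stretch of Rps27l is shared with another gene, but 44.2% of those of Rps27 are, so the size of this share is uncertain.

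Rpl36al, the autosomal copy of X-linked Rpl36a, took 23.6% and 23.3% of its pair in B cell-like cells, 46.0% and 47.5% in inflammatory monocyte-like cells, 40.0% and 32.4% in resident macrophage-like cells and 36.8% and 33.2% in cDC2-like cells. Since 72.7% of its own stretches and 100% of those of Rpl36a are shared with other genes, the size of this share is uncertain. Rpl22l1 took 20.9% and 29.6% of its pair with Rpl22 in B cell-like cells, 19.0% and 24.1% in cDC2-like cells and 19.1% and 26.2% in resident macrophage-like cells, and was higher in KO in every one of the 8 classes, with intervals that overlap in inflammatory monocyte-like, eosinophil-like and neutrophil-like cells. Rpl7l1 took 2.41% and 2.28% of its pair with Rpl7 over all cells, 1.24% and 1.16% in T cell-like, 4.47% and 5.49% in eosinophil-like and 5.88% and 2.25% in neutrophil-like cells, the last from 8 UMIs in each library. Rpl3l took 7.81% (2.59% to 17.3%) and 16.7% (11.5% to 22.9%) of its pair with Rpl3 in neutrophil-like cells, from 5 and 30 UMIs, and 1.78% and 1.01% in inflammatory monocyte-like cells. Rps27rt hardly differed between classes as a share of Rps27 and Rps27rt, from 8.25% to 10.2% in WT and from 5.38% to 7.35% in KO.

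**Figure D3:**
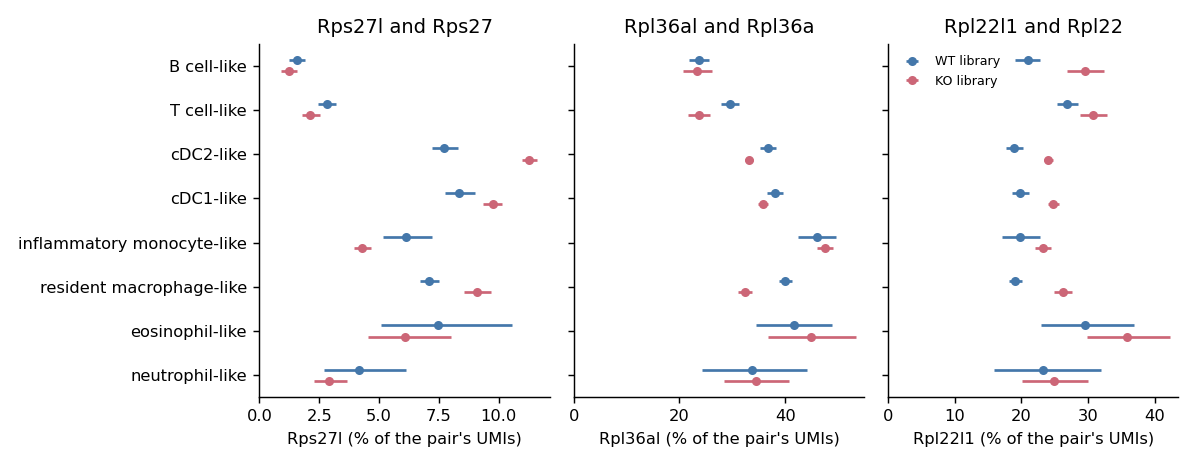
Share of Rps27l, Rpl36al and Rpl22l1 in the UMIs of their pairs, by class and library, with exact 95% intervals of counting error. Rps27l lies below 3% in B cell-like and T cell-like cells of both libraries, and Rpl22l1 lies further right in KO than in WT in every class.

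Among other comparisons, the study sets colon macrophages of mice without the lncRNA against those of wild-type mice. For these genes the answer the data allow is a difference between 2 libraries. Over all cells the members' share was 15.5% in WT and 18.5% in KO, a log2 ratio of 0.26. Class make-up differed between the libraries, with 801 WT and 313 KO resident macrophage-like, 235 and 5 plasma cell-like and 224 and 410 eosinophil-like cells. With each library clustered alone, 295 and 310 were resident macrophage-like, while 456 WT and 38 KO cells stayed unnamed. Immunoglobulin UMIs took 7.84% of the WT total and 0.266% of the KO total. With immunoglobulin left out of the total the log2 ratio was 0.15, and the mean share per cell gave 0.043.

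Within classes, the share was higher in KO in 6 and lower in 2. In resident macrophage-like cells it was 13.4% in WT and 14.1% in KO, a log2 ratio of 0.079 (95% interval 0.074 to 0.085), while the cell medians were 11.4% and 11.7%. The ratio was 0.12 in inflammatory monocyte-like, 0.062 in cDC2-like and 0.095 in cDC1-like cells. It was 0.23 in B cell-like and 0.42 in T cell-like cells, but -0.26 in the 26 WT and 41 KO natural killer cell-like cells, too few to be counted among the 8 classes. In T cell-like cells the cell medians were 17.8% and 24.8%. The B cell-like ratio was -0.025 when each library was clustered alone, and the inflammatory monocyte-like ratio was then 0.34, with 406 WT cells in the class in place of 83. In eosinophil-like cells it was -0.59 (-0.62 to -0.56) and in neutrophil-like cells -0.31 (-0.34 to -0.28). Over the alternatives tried the eosinophil-like ratio lay between -0.75 and -0.27 and the neutrophil-like ratio between -1.04 and -0.30. Apart from the T cell-like and B cell-like classes, the medians of both libraries lay inside each other's quartile ranges in every class except eosinophil-like cells, whose KO median of 4.07% lay inside the WT range and whose WT median of 5.21% lay above the KO range.

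Other values moved along with the libraries. Median depth was higher in KO in each of the 8 classes, for instance 8544 against 5356 UMIs in resident macrophage-like cells, so that these cells held 1325 member UMIs each in KO and 784 in WT. Mitochondrial UMIs made up 3.57% in WT and 1.53% in KO neutrophil-like cells, 4.46% and 5.27% in eosinophil-like and 3.94% and 4.68% in resident macrophage-like cells. Immunoglobulin UMIs made up 0.214% and 0.013% in resident macrophage-like and 0.820% and 0.013% in T cell-like cells. The part of these in the ratios was not tested, and genotype, sort, pool and library cannot be told apart.

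Gene by gene, each member with at least 50 UMIs in a class was called higher or lower in KO when its CPM differed at least 1.5-fold, and the same limit was applied to all genes. In resident macrophage-like cells 3 of 80 members were higher (Rpl12, Rps15a and Rps18) against 7.70% of all genes read, and 1 was lower (Rps9) against 18.7%. With the limit at a log2 ratio of 0.32, 26 of the 80 were higher there against 15.7% of all genes, and 7 were lower against 36.9%. In inflammatory monocyte-like cells 6 of 80 were higher (Rpl12, Rps3, Rps15a, Rpl26, Rps23 and Rps18) against 10.2%, and 0 were lower against 19.2%. In cDC2-like cells 3 of 80 were higher (Rps15a, Rps27l and Rps18) against 9.17%, and 2 were lower (Rpl41 and Rps27rt) against 22.5%. In cDC1-like cells 3 of 80 were higher (Rpl10, Rps15a and Rps18) against 7.10%, and 1 was lower (Rps27rt) against 11.9%. In these 4 classes the share of members past the 1.5-fold limit was below the background in both directions.

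Larger shares of the members were past the limit in 3 of the other classes. In T cell-like cells 28 of 78 members were higher against 8.98% of all genes, and 0 were lower against 25.7%. In B cell-like cells 16 of 79 were higher against 7.18%, and 1 was lower (Rps9) against 17.3%. In eosinophil-like cells 0 of 78 were higher against 18.1%, and 37 were lower against 14.0%. In neutrophil-like cells 2 of 78 were higher (Rps15a and Rps7) against 14.3%, and 20 were lower against 21.9%, close to the background. Over all cells 17 of 81 were higher against 9.44%, and 1 was lower (Rpl41) against 30.3%.

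The median log2 ratio of the members lay above that of all genes in 6 classes and below it in both granulocyte classes. It was 0.20 against -0.16 in resident macrophage-like, 0.19 against -0.13 in inflammatory monocyte-like, 0.13 against -0.20 in cDC2-like, 0.17 against -0.12 in cDC1-like, 0.35 against -0.089 in B cell-like and 0.52 against -0.19 in T cell-like cells. It was -0.52 against 0.062 in eosinophil-like and -0.33 against -0.085 in neutrophil-like cells. Of the members read, 55 of 80 lay above 0 in resident macrophage-like cells, 70 of 78 in T cell-like cells and 2 of 78 in eosinophil-like cells. The extremes were Rpl12 at 1.06 in T cell-like cells, with levels of 1757 (WT) and 3659 (KO) CPM, and Rpl14 at -1.46 in eosinophil-like cells, with 408 and 148 CPM.

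**Figure D4:**
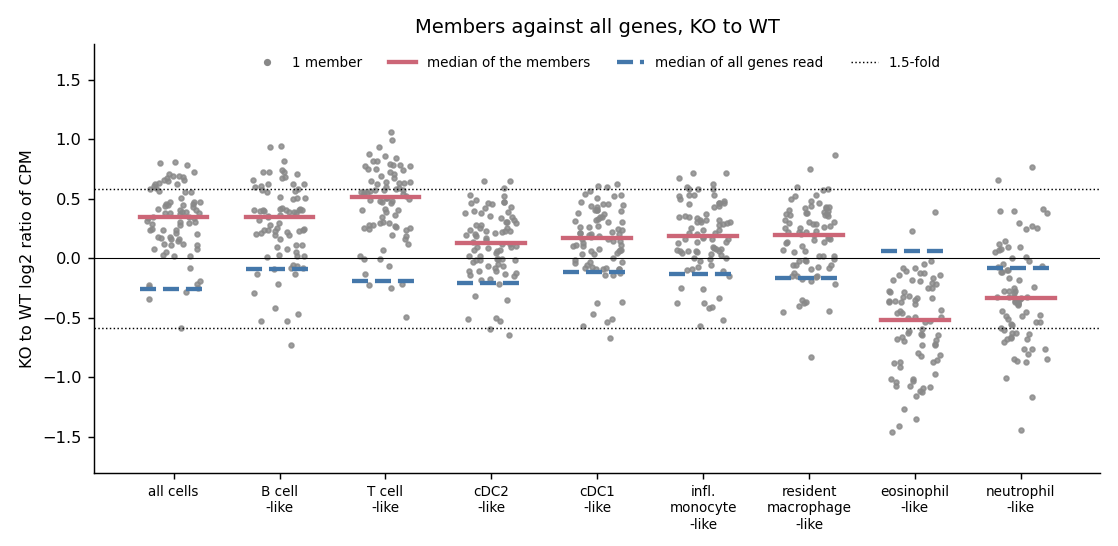
KO to WT log2 ratio of CPM for each member with at least 50 UMIs (points), with the median of the members (solid line) and of all genes read (dashed line), over all cells and in each class; dotted lines mark 1.5-fold. The members' median lies above that of all genes in 6 classes, highest in T cell-like cells (0.52), and below it in eosinophil-like (-0.52) and neutrophil-like cells (-0.33).

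The KO to WT ratio was also taken of a member's share of the pool, so that a shift of the whole pool cancels. Members still parted, some with 1 sign in all 8 classes and others with signs that differed between classes. Of 79 members with at least 1000 UMIs, 16 had a ratio above 0 in all 8 classes and 11 a ratio below 0 in all 8. The interval lay above 0 in at least 6 classes for 29 members and below 0 in at least 6 for 13, while 23 had it above 0 in 1 class or more and below 0 in another. The classes share their 2 libraries, so they do not repeat the comparison independently.

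Rps18, a protein of the small subunit head, had the highest median ratio over classes, 0.58. Its share went from 0.655% in WT to 1.04% in KO in resident macrophage-like cells, from 0.698% to 1.05% in inflammatory monocyte-like, from 0.751% to 1.13% in cDC2-like, from 0.747% to 1.12% in B cell-like and from 0.800% to 1.19% in T cell-like cells. The difference was smaller in granulocytes, from 0.386% to 0.452% in eosinophil-like and from 0.492% to 0.564% in neutrophil-like cells. Rps15a, another small subunit protein, had a median of 0.52 and went from 0.876% to 1.254% in resident macrophage-like cells. Rpl12 had a median of 0.51, with 0.79 in resident macrophage-like cells and -0.22 in neutrophil-like cells. Rpl10, which joins the large subunit late in its maturation, had 0.49 with an interval above 0 in 8 of 8 classes, shared in this by Rps23 only. Rpl26 had 0.44, from 0.22 in neutrophil-like to 0.51 in T cell-like cells.

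Rpl41 had the lowest median, -0.66. Its share of the pool went from 4.56% to 3.26% in resident macrophage-like, from 4.33% to 2.68% in inflammatory monocyte-like, from 4.8% to 2.94% in cDC2-like and from 4.93% to 2.61% in T cell-like cells, and it went up, from 4.74% to 5.70%, in eosinophil-like cells. Rps9 had -0.60, with -0.91 in resident macrophage-like cells, where its level was 4728 CPM in WT against 2658 in KO. Rps26 had -0.59 and went from 1.83% to 1.28% in resident macrophage-like cells, and Rps28 had -0.55 and went from 2.73% to 1.99%. Rps9, Rps26, Rpl23a and Rps28 had intervals below 0 in 8 of 8 classes. Rpl38, known for its part in skeletal patterning of the mouse embryo, had -0.45, from 2.09% to 1.53% in resident macrophage-like cells, but went from 1.76% to 2.42% in eosinophil-like cells.

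**Figure D5:**
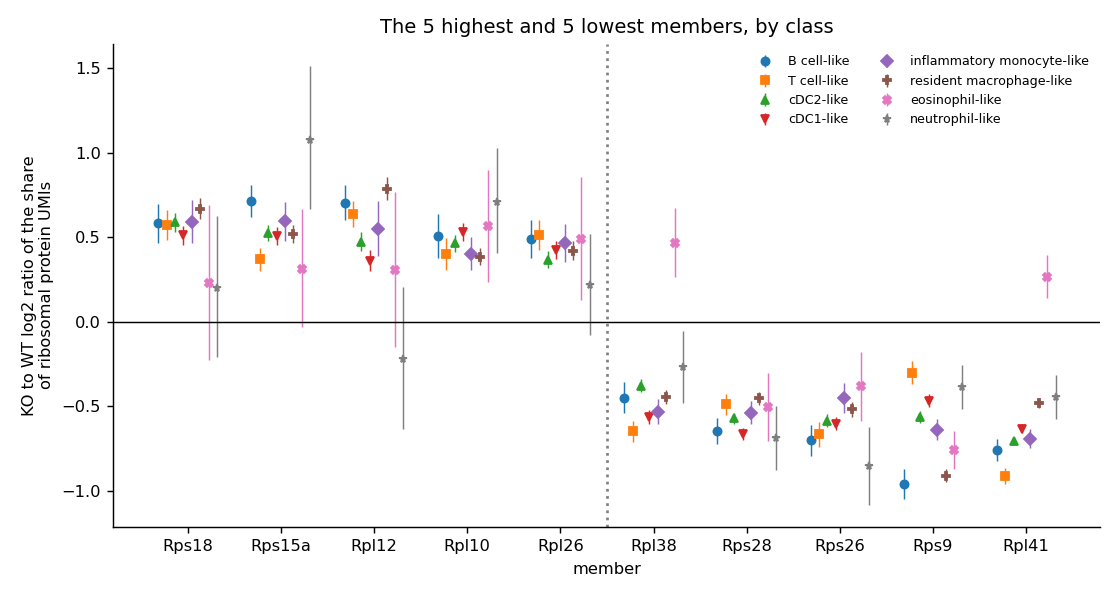
KO to WT log2 ratio of the share of ribosomal protein UMIs for the 5 members of highest and the 5 of lowest median over classes, with 1 symbol per class and exact 95% intervals of counting error. Values on the other side of 0 from the member's median are those of Rpl41 and Rpl38 in eosinophil-like cells (0.27 and 0.46) and of Rpl12 in neutrophil-like cells (-0.22), and the highest value is that of Rps15a in neutrophil-like cells (1.08).

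The coding length of a member, a property the rule did not use, was weakly related to its KO to WT ratio of CPM over all cells, with a Pearson r of 0.35 and a Spearman rho of 0.28 over 79 members that share both libraries. Among 4677 other genes with at least 1000 UMIs r was 0.00078. The 26 shortest members (coding length 138 to 399 bases) had a median within-pool ratio of -0.050, the 27 of middle length (405 to 576 bases) 0.19 and the 26 longest (582 to 1257 bases) 0.091. In eosinophil-like cells the relation turned, to an r of -0.34, and in neutrophil-like cells it was absent, with an r of -0.0038. In the remaining classes r lay between 0.24 (B cell-like) and 0.41 (cDC1-like). The GC content of the last 300 bases had an r of -0.070 over all cells.

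Genes that work with the members followed them in part. The 6 ribosomal proteins outside the symbol rule (among them Rplp0 and Rack1) took 1.46% of UMIs in WT and 1.76% in KO, and in T cell-like cells 1.86% and 2.49%. The log2 ratio of their share was 0.011 (-0.0069 to 0.028) in resident macrophage-like cells, where the members had 0.079. In B cell-like cells it was 0.080, where the members had 0.23. In eosinophil-like cells these 6 took 1.08% and 0.674%, with 3 of 5 read at least 1.5-fold lower against 14.0% of all genes. Among the lower ones was Rack1, a scaffold on the small subunit, at 1219 and 438 CPM. The 17 translation factors and other TOP mRNAs found of 18 listed took 1.51% and 1.85%, with 1 of 17 at least 1.5-fold higher, against 9.44% of all genes, and 0 lower, against 30.3%, over all cells. In eosinophil-like cells they took 1.15% and 0.839%, with 0 of 16 higher against 18.1% and 4 lower against 14.0%. In neutrophil-like cells they took 0.696% and 0.559%, with 0 of 13 higher against 14.3% and 7 lower against 21.9%. In T cell-like cells the list took 1.91% and 2.42%, with 2 of 17 higher against 8.98% of all genes and 1 lower against 25.7%. Its median gene there had a log2 ratio of 0.049, where the median member had 0.52. Tpt1, a TOP mRNA, went from 5204 to 9410 CPM in T cell-like cells, unlike that median gene. It went from 3792 to 2723 CPM in eosinophil-like cells, so this 1 gene had the direction of the members in both.

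Genes that build ribosomes followed the members in some classes and not in others. The 20 ribosome biogenesis genes, among them Ncl of the nucleolus, took 0.148% in WT and 0.146% in KO. Of these, 0 of 20 were higher, against 9.44% of all genes, and 1 was lower, below the 30.3% of all genes. The log2 ratio of their share had the sign of the members' ratio in B cell-like (0.35), eosinophil-like (-0.32) and neutrophil-like cells (-0.85). However, only 1 of the 20 genes reached the minimum of 50 UMIs in eosinophil-like cells and 2 in neutrophil-like cells. The ratio of the share had the opposite sign in cDC2-like (-0.32), cDC1-like (-0.18) and inflammatory monocyte-like cells (-0.32). Its interval spanned 0 in T cell-like (-0.050) and resident macrophage-like cells (0.057). Another list, the 7 genes that control translation of these mRNAs, took 0.042% and 0.039%. Over all cells 0 of 7 were higher against 9.44% of all genes, and 1 was lower against 30.3%. In inflammatory monocyte-like cells 0 of 6 were higher against 10.2% of all genes and 4 lower against 19.2%. In cDC2-like cells 1 of 7 was higher (9.17% of all genes) and 1 lower (22.5%). In cDC1-like cells 0 of 7 were higher (7.1%) and 1 lower (11.9%), and in resident macrophage-like cells 0 of 7 (7.7%) and 1 (18.7%). In T cell-like cells 0 of 5 were higher (8.98%) and 1 lower (25.7%). In B cell-like cells 1 of 4 was higher (7.18%) and 0 lower (17.3%). In neutrophil-like cells only 3 could be read, with 1 higher (14.3%) and 1 lower (21.9%). In eosinophil-like cells the 1 gene read was neither higher (18.1%) nor lower (14%).

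The 78 mitochondrial ribosomal protein genes, which build a separate ribosome, took 0.303% in WT and 0.255% in KO. Over all cells 0 of 77 read were higher, against 9.44% of all genes, and 16 lower, a smaller share than the 30.3% of all genes lower there. In T cell-like cells 1 of 42 was higher, against 8.98% of all genes, and 26 were lower, a larger share than the 25.7% of all genes, and the log2 ratio of their share was -0.61. In neutrophil-like cells that ratio was -0.28, with the sign of the members' ratio. However, only 4 of the genes could be read there, with a median log2 ratio of 0.31. In eosinophil-like cells the ratio of the share was -0.0085 (-0.18 to 0.17).

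Across the 8 classes of both libraries, 16 points that share 2 libraries, the genes whose log2 CPM was most like the summed members were looked for among 2822 other genes with at least 2000 UMIs. The highest Pearson r belonged to the elongation factor Eef1a1 (0.978), followed by Eef1b2 (0.971), Gm11808 (0.967), Naca (0.966), Eef1g (0.962), Gm2000 (0.961), Hspe1 (0.958), Rplp0 (0.954), Atp5d (0.953) and Ktn1 (0.944). Members, which are part of the sum, had a median r of 0.976, and 73 of 81 exceeded 0.9, against 35 of the 2822 other genes. Rpl3l had the lowest r of any member, -0.70.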

How the data were processed

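The deposited files hold counts: whole UMI counts per gene and cell barcode that the authors made with Cell Ranger 3.0.2 (per the file headers) on mm10, with Seurat 4 named in the submitters' processing notes. The WT matrix holds 3185 barcodes and the KO matrix 3020, fewer than the cell numbers given by the study, and 1 barcode occurs in both. Cells with 200 to 6000 detected genes and at most 15% mitochondrial UMIs were kept, the study's limits, which removed 588 WT (18.5%) and 506 KO barcodes (16.8%). No doublet caller was used on the values reported.

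Counts were scaled to cell totals and logged, and 2000 variable genes without the members or the translation lists gave 30 principal components, 15 neighbours and Leiden clusters (resolution 1, random seed 0; scanpy 1.11.5, leidenalg 0.10.2, Python 3.11.15). The study clustered with another method, so classes are rebuilt and may differ from its own. A cluster was named "-like" from at least 3 markers raised 2-fold, and 1 of the clusters stayed unnamed. UMIs were then summed per class and library. With 1 library per group there is no test across samples: shares carry exact Clopper-Pearson intervals and KO to WT ratios exact conditional binomial intervals at 95% (scipy 1.17.1), which cover counting error only.

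The members named are the 6 with the most and the 6 with the fewest UMIs. Also named are the 10 with the largest and the 4 with the smallest range over classes. To these come the 5 highest and 5 lowest median KO to WT ratios within the pool (members with at least 1000 UMIs). Fixed paralog pairs and 8 members picked by name complete the list. Some items that these rules name are not reported here. The members and the gene lists were chosen with earlier results of these data known. The 9 features with -ps in the symbol held 0.143% (WT) and 0.0962% (KO) as many UMIs as the members. Shared stretches and coding lengths come from the GENCODE annotation, start windows from RefSeq on GRCm38.p6.

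Alternatives tried were stricter cell limits, every barcode, other clusterings, other totals, means per cell, thinning to 1000 UMIs, doublet scores from Scrublet and other fold limits.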

Additional observations from a re-analysis of the deposited data

Results flagged for a closer look

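The eosinophil-like share ratio, -0.59 on the log2 scale, and the neutrophil-like one, -0.31, ran opposite to the other 6 classes, whose shares were higher in KO. Over the alternatives tried these ratios lay between -0.75 and -0.27 and between -1.04 and -0.30. In eosinophil-like cells 37 of 78 members were at least 1.5-fold lower, against 14.0% of all genes. The difference between classes was not tested, since each genotype has 1 library.

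Within the pool, Rpl41 in eosinophil-like cells had a KO to WT log2 ratio of 0.27 and Rpl38 one of 0.46, while both were below 0 in the other 7 classes. This difference was not tested either. With eosinophil-like medians of 795 and 971 UMIs per cell, the granulocyte values are those with the fewest counts behind them.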

How the results depend on the processing

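No paired analysis was possible because each group has 1 library. The log2 KO to WT ratio of the share over all cells, 0.26, was 0.27 with stricter cell limits, 0.29 with every barcode, 0.25 without mitochondrial and 0.15 without immunoglobulin UMIs in the total, 0.043 as a mean per cell, 0.12 thinned to 1000 UMIs and 0.27 without the top 3% of Scrublet doublet scores. Scrublet called 1 WT (0.0385%) and 9 KO cells (0.358%), under the share at which such a caller is taken to have worked, so doublets were not removed.

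The resident macrophage-like ratio, 0.079, was 0.11 with stricter limits, 0.088 with Leiden resolution 0.5, 0.10 with each library clustered alone, 0.15 when translation genes could be variable genes, 0.090 without mitochondrial UMIs, 0.066 as a mean per cell, 0.064 thinned, 0.067 without high doublet scores and 0.073 with the other ribosomal proteins counted in. The inflammatory monocyte-like ratio, 0.12, was 0.077, 0.34, 0.23, 0.068 and 0.091 with stricter limits, libraries alone, translation genes, mean per cell and thinning. The cDC2-like ratio, 0.062, was 0.052 with stricter limits, 0.095 with resolution 0.5, 0.10 with libraries alone, 0.076 with translation genes, 0.036 as a mean and 0.056 thinned.

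The log2 ratio of the highest to the lowest class, 1.97 in WT and 2.51 in KO, was 2.07 and 2.88 with stricter limits, 1.75 and 2.98 with libraries alone, 2.01 and 2.57 without mitochondrial UMIs, 2.24 and 2.85 as means, 2.23 and 2.83 thinned, 2.32 and 2.90 without high doublet scores, and 1.92 and 2.44 with the other ribosomal proteins. With translation genes it was 2.56 in KO. The count of resident macrophage-like members past the fold limit, 4, was 33 at a limit of 0.32 on the log2 scale, 26 of 80 higher against 15.7% of all genes and 7 lower against 36.9%.

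The one ratio that changed sign was that of B cell-like cells, 0.23, at -0.025 with each library clustered alone. The cause was not tested for any of these. Both reclusterings regrouped cells: resident macrophage-like WT cells numbered 295 with libraries alone and 429 with translation genes in place of 801, against 310 and 282 in KO in place of 313. The gap in cell number was thus absent with libraries alone, where 456 WT and 38 KO cells stayed unnamed in place of 122 and 69. Inflammatory monocyte-like WT cells numbered 406 with libraries alone and 466 with translation genes in place of 83. Libraries alone gave 0 eosinophil-like WT cells and resolution 0.5 gave 28 cDC1-like WT cells, so those classes have no ratio there. The 10 members named for their ratios within the pool kept their direction in all 6 alternatives tried, Rps18 between 0.55 and 0.59 and Rpl41 between -0.70 and -0.57.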
